A study of Homo sapiens with 4 samples.

Results

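The SPARC family of secreted matrix proteins was examined in human embryonic stem cells that had begun hematopoietic differentiation with or without an inhibitor of Wnt signaling. Its 7 members, SPARCL1, SPARC, SMOC1, SMOC2, SPOCK1, SPOCK2 and SPOCK3, were taken by symbol from a table of 56595 gene symbols. SPARCL1 was selected on its measured difference between the same libraries, where it was among the largest increases with the inhibitor, so its values in that comparison are given as a description with no test. The other 6 genes were listed as its relatives, and 3 of them had enough signal to be tested.

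The cells were H1, an established human embryonic stem cell line, grown for 2 days in a modified mTeSR1 medium with activin A and BMP4, the cytokines that start mesoderm formation in this protocol. The labels give 40 ng/ml activin A and 50 ng/ml BMP4 for every library, while the written methods of the study assign these amounts the other way round. One group of 2 libraries received DMSO, the solvent control, and the other group of 2 received IWP2 in the same medium. IWP2 blocks Porcupine, the enzyme that prepares Wnt ligands for secretion, and the comparison asks what the cells express at day 2 when Wnt signaling is inhibited. The labels give no dose of IWP2 and do not say that the replicates came from separate cultures, so p-values measure the spread between these libraries, which may be technical. All libraries are of 1 cell line.

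SPARC, also called osteonectin, is a calcium-binding glycoprotein that cells secrete into the matrix, where it binds collagens and changes how cells adhere, without being a structural fiber itself. Proteins of this kind are called matricellular. SPARCL1, or hevin, is its closest relative and is known from blood vessels and from astrocytes, where it takes part in synapse formation. The SMOC proteins carry the same extracellular calcium-binding module and are known to act on BMP signaling, and the SPOCK proteins, or testicans, are proteoglycans that have been linked to the control of membrane-type matrix metalloproteinases.

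Levels are FPKM, fragments scaled by transcript length and by the mapped total of the library, and differences are IWP2 minus DMSO on the log2(FPKM + 1) scale unless stated. A gene was tested when its mean over the 4 libraries was at least 0.5 FPKM, and was called when its limma adjusted p was below 0.05 over all 15957 genes tested. The depth of the libraries is unknown, and the spacing of low values put the other 3 between 0.889 and 1.10 times the first DMSO library. Replicates had a Pearson r across tested genes of 0.975 in DMSO and 0.981 in IWP2, against 0.938 to 0.948 between groups. POU5F1, a defining gene of embryonic stem cells, lay at 751 and 571 FPKM in DMSO and at 1854 and 1844 in IWP2, so it was high in every library. As a check of the treatment, AXIN2, a direct Wnt target, fell from 14.2 and 15.2 FPKM in DMSO to 6.45 and 5.58 in IWP2 (adjusted p = 0.0063 by limma), and SP5, another such target, fell from 53.2 and 47.0 to 0.379 and 0.363 (adjusted p = 0.000302 by limma).

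The sequences ahead of the SPARCL1 and SPARC starts are shown first, because these genes carry the contrast described next and their start regions differ in base composition. They were read from the RefSeq promoter table (GRCh38.p14), which held windows for 6 of the 7 members. Both genes lie on the minus strand and both sequences run 5′ to 3′ along the gene. For SPARCL1 the stretch is chr4:87529505-87529626, the 122 bases just before the first base of the GENCODE transcript SPARCL1-201, and it lies in the first intron of longer SPARCL1 transcripts. Capitals mark TATAAA, the letters of a TATA box, which begin 32 bases before that start and 160 bases before the start in RefSeq. For SPARC the stretch is the 30 bases at chr5:151687012-151687041, from 126 to 97 bases before the RefSeq start and inside the first exon of the GENCODE transcript SPARC-201. Capitals there mark GGAGGA, a purine repeat, with 3 overlapping or neighboring matches.
SPARCL1: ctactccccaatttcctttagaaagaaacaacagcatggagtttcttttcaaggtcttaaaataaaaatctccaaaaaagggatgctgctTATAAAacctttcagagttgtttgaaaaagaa
SPARC: ggccgggggaaGGAGGAgacaGGAGGAGGA

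The windows of 250 bases before each RefSeq start were searched on both strands. The SPARCL1 window had a GC content of 38.8% with 1 CpG, below most of the 35116 windows in the table, whose medians were 58.0% and 11. TATAAA occurred in 10.7% of all windows, and among the members it was also found in SMOC1, but on the strand opposite the gene. Along the SMOC1 gene the letters read TTTATA, beginning 31 bases before the start. The SPARC window had a GC content of 59.2%, 7 CpG and 5 matches of GGAGGA, a number reached by 0.669% of all windows, while at least 1 match occurred in 31.8%. The SMOC2 window stood at the other end of the family, with a GC content of 75.2% and 24 CpG. CTTTGA, the core of TCF/LEF motifs, was in 11.2% of all windows and in neither the SPARCL1 nor the SPARC window, which says only that these letters are not there.

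SPARCL1 was the member with the largest difference. Its level was 2.14 and 2.34 FPKM in the DMSO libraries and 43.0 and 41.2 in the IWP2 libraries, or 2.24 ± 0.142 against 42.1 ± 1.30 (mean ± SD, n = 2 each). Both IWP2 libraries were far above both DMSO libraries, and the ratio of any IWP2 library to any DMSO library lay between 17.6 and 20.1, with 18.8 for the means. On the log2(FPKM + 1) scale the difference was 3.73 with a standard error of 0.10, and with a pseudocount of 0.1 it was 4.17, since a pseudocount of 1 understates the change of a gene this low in DMSO. Leaving out each library in turn gave 3.69 to 3.78. SPARCL1 was chosen for this difference, so the standard error and this range only describe these libraries and lend it no support.

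By size of the difference SPARCL1 ranked 5 of 15957. MTATP8P2 lay just above it at 3.77 and U3 just below it at 3.67, and both of these are short genes listed at 0 in both DMSO libraries. SOX2, a pluripotency and neural transcription factor, had the largest increase at 4.96, and CTGF, itself a matricellular gene, stood at 4.10. In the order of all genes by level, SPARCL1 moved from places 11944 and 11650 in DMSO to 2121 and 2276 in IWP2.

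SPARC was the dominant transcript of the family and changed the other way. It stood at 1034 and 1026 FPKM in DMSO and at 690 and 733 in IWP2, or 1030 ± 5.30 against 711 ± 30.6 (mean ± SD, n = 2 each). Both IWP2 libraries lay below both DMSO libraries, a 1.45-fold lower mean. The difference of -0.53 with a standard error of 0.08 passed the threshold (limma adjusted p = 0.0183 over all genes). The call was lost when any 1 of the 4 libraries was left out, where the difference was -0.58 to -0.49 and the limma adjusted p 0.108 to 0.150, and when all genes were tested without the filter on low values (limma adjusted p = 0.0900). SPARC stayed among the most abundant transcripts, at place 94 in both DMSO libraries and at 135 and 132 in IWP2.

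**Figure D1:**
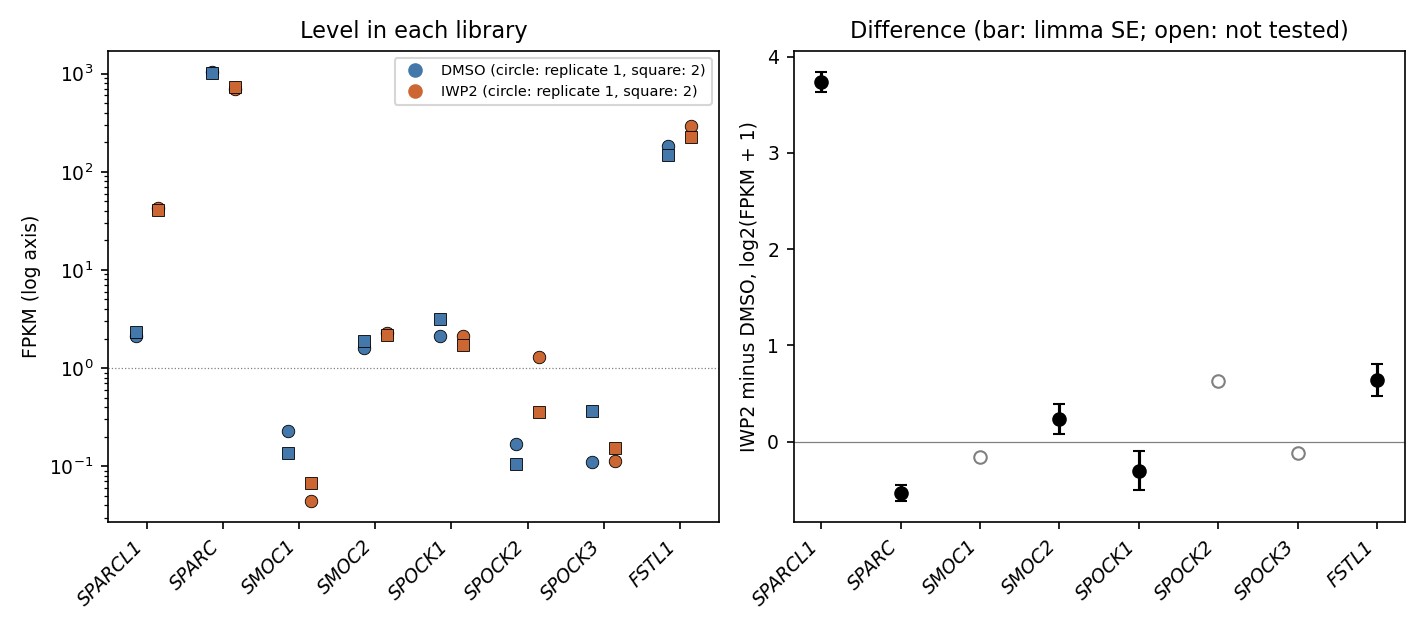
FPKM of the 7 members and of FSTL1, a relative that is no member, in each library (left, log axis) and the difference IWP2 minus DMSO in log2(FPKM + 1) (right, bars are the limma standard error, open points were not tested). SPARCL1 stands at 2.14 and 2.34 in DMSO and at 43.0 and 41.2 in IWP2, while SPARC lies at 690 or more in every library.

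These opposite changes shifted the makeup of the family. SPARC exceeded SPARCL1 by 483 and 439 times in the DMSO libraries and by 16.0 and 17.8 times in the IWP2 libraries. Among the summed FPKM of the 7 members, SPARCL1 made up 0.206% and 0.226% in DMSO and 5.83% and 5.29% in IWP2, and SPARC went from 99.4% and 99.2% to 93.4% and 94.1%. The sum itself was 1040 and 1034 FPKM in DMSO and 739 and 779 in IWP2. Without SPARC, the other members added up to 6.38 and 7.98 FPKM in DMSO and to 48.9 and 45.7 in IWP2, most of it SPARCL1. In these bulk libraries, fewer cells that express a gene and less RNA of it per cell cannot be told apart.

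The SMOC genes were low. SMOC2 stood at 1.61 and 1.90 FPKM in DMSO and at 2.29 and 2.18 in IWP2, with the IWP2 libraries slightly higher and no overlap. Its difference of 0.23 with a standard error of 0.15 was not called (limma adjusted p = 0.387). SMOC1 was listed at 0.226 and 0.138 FPKM in DMSO and at 0.0443 and 0.0672 in IWP2, lower in both IWP2 libraries but at levels under the filter, so it was not tested. When every gene was tested without that filter, its limma adjusted p was 0.247.

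The testicans were also low. SPOCK1 stood at 2.12 and 3.13 FPKM in DMSO and at 2.12 and 1.72 in IWP2. The first IWP2 library was only just below the first DMSO library, and the difference of -0.30 with a standard error of 0.20 was not called (limma adjusted p = 0.390). SPOCK2 was at 0.167 and 0.106 FPKM in DMSO and at 1.29 and 0.356 in IWP2. Both IWP2 libraries were above both DMSO libraries, but they differed widely from each other, and the mean over the 4 libraries lay just under the filter, so SPOCK2 was not tested. Without the filter its limma adjusted p was 0.395. SPOCK3 was at 0.110 and 0.370 FPKM in DMSO and at 0.113 and 0.152 in IWP2, with the groups overlapping, and its difference of -0.12 became 0.03 without the second DMSO library. It was not tested either, with a limma adjusted p of 0.627 without the filter.

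Of the 6 relatives of SPARCL1, 3 were tested and 1, SPARC, was called. Among all genes tested 13.3% were called, 5.86% higher and 7.39% lower in IWP2. Of the 7 members, 3 had both IWP2 libraries above both DMSO libraries (SPARCL1, SMOC2 and SPOCK2), 3 had both below (SPARC, SMOC1 and SPOCK1) and SPOCK3 overlapped. SPARCL1 was chosen for its increase, so its place is left out of the comparison with all genes. Of the 3 tested relatives, SMOC2 was above, and SPARC and SPOCK1 were below. Over all genes tested, the shares were 27.6% above and 31.0% below, so groups that did not overlap were frequent in this comparison. The median difference over all genes tested was -0.01.

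Within DMSO the order of the members by FPKM was SPARC, SPOCK1, SPARCL1, SMOC2, SPOCK3, SMOC1 and SPOCK2. SPOCK1 and SPARCL1 overlapped between libraries, and so did the last 3. Within IWP2 the order was SPARC, SPARCL1, SMOC2, SPOCK1, SPOCK2, SPOCK3 and SMOC1, and no neighbors overlapped, with 2 libraries to judge it. FSTL1, a secreted relative with the same follistatin and calcium-binding modules, is no member. It was at 182 and 150 FPKM in DMSO and at 294 and 225 in IWP2, higher in both IWP2 libraries by 0.64 with a standard error of 0.17, and was not called (limma adjusted p = 0.0713).

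**Figure D2:**
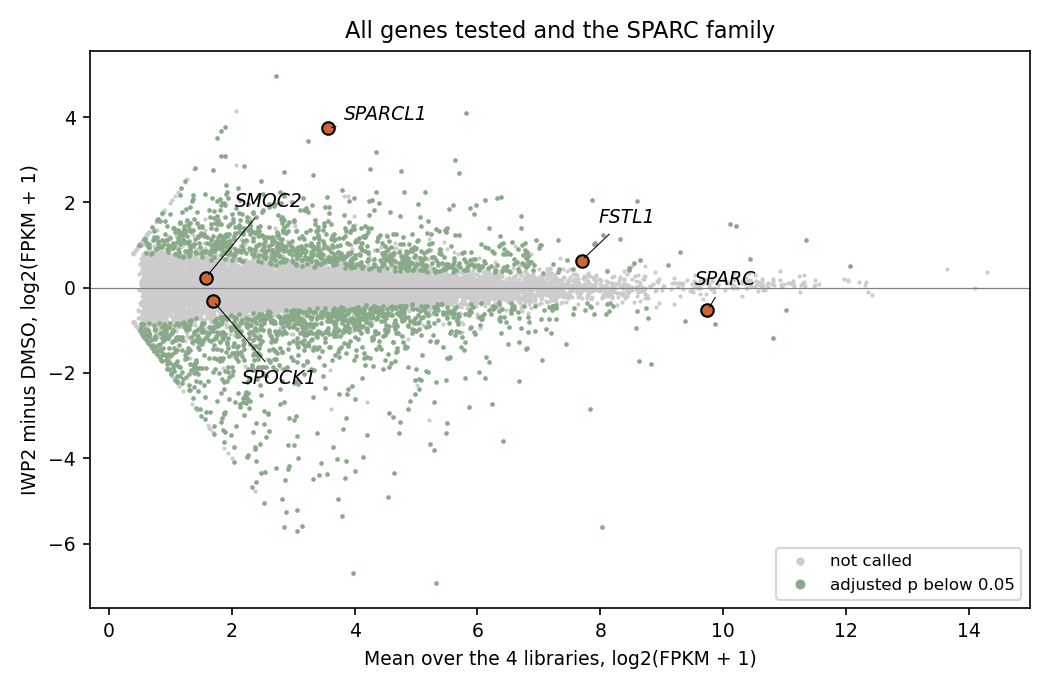
Difference IWP2 minus DMSO against the mean level of each of the 15957 genes tested, both in log2(FPKM + 1), with the 4 tested members and FSTL1, which is no member, as orange points. SPARCL1 lies near the upper edge at 3.73, SPARC below 0 at -0.53 among the most abundant genes, and SMOC2 and SPOCK1 within the cloud of genes that were not called.

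The coordinates below are of GRCh38, 1-based, and give the whole gene. SPARCL1 (ENSG00000152583) lies at chr4:87473335-87531061 and SPARC (ENSG00000113140) at chr5:151661096-151687165, both on the minus strand. SMOC2 (ENSG00000112562) lies at chr6:168441151-168673445 on the plus strand and SPOCK1 (ENSG00000152377) at chr5:136975298-137598379 on the minus strand. FPKM is 1 value per gene here, so it does not tell which start was used. GENCODE 29 lists 10 transcripts for SPARCL1 and 9 for SPARC.

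Other matricellular genes moved in both directions. Of 25 such genes 14 were tested, 3 rose and 4 fell, with a median of 0.13 against -0.01 for all genes tested. CTGF, which binds integrins and growth factors, stood at 15.75 and 10.03 FPKM in DMSO and at 221 and 244 in IWP2, a rise of 4.10 with a standard error of 0.21 (limma adjusted p = 0.000982). CYR61, its close relative, went from 20.7 and 13.5 FPKM to 136 and 143, a rise of 2.99 (limma adjusted p = 0.0020). THBS1, thrombospondin 1, also rose, by 1.42 (limma adjusted p = 0.0108). TNC, the matrix glycoprotein tenascin C, fell from 103 and 70.7 FPKM to 7.24 and 6.94 (difference -3.42, limma adjusted p = 0.00118), and FBLN1, FBLN2 and FBLN5, fibulins of elastic fibers and basement membranes, fell by 0.61, 1.19 and 0.82 on the log2 scale. SPP1, or osteopontin, was at 30.4 and 9.39 FPKM in the DMSO libraries, which are far apart, and was not called (limma adjusted p = 0.307).

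Genes linked to the binding, reception or processing of SPARC also moved both ways. Of 29 genes 23 were tested, 4 rose and 9 fell, with a median of -0.33. COL5A1, a chain of type V collagen, went from 119 and 154 FPKM to 14.7 and 13.8 (difference -3.17, limma adjusted p = 0.000698), and COL5A2, COL4A1 and COL4A2 also fell. COL1A1, a chain of the main collagen that SPARC binds, had a difference of -0.46 and was not called (limma adjusted p = 0.0816). ITGA5, the alpha chain of a fibronectin receptor, fell by 2.17 on the log2 scale (limma adjusted p = 0.000635), while FN1, fibronectin itself, rose from 235 and 153 FPKM to 794 and 769 (difference 2.04, limma adjusted p = 0.00603). PDGFA and PDGFB, which encode chains of platelet-derived growth factor, rose by 2.34 and 2.19. STAB1, the scavenger receptor for SPARC, was under the filter.

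Among 17 genes of testican-linked proteases and proteoglycan synthesis 16 were tested, 3 rose and 2 fell, with a median of -0.08. MMP14, a membrane-type metalloproteinase and also a protease of the previous list, went from 183 and 165 FPKM to 87.0 and 82.9 (difference -1.02, limma adjusted p = 0.00404). MMP24, a protease of the same type, was low and rose by 1.28 (limma adjusted p = 0.0217), TIMP2, a metalloproteinase inhibitor, rose by 0.82, and CHSY1, an enzyme that builds chondroitin chains, fell by 0.61.

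All 19 genes of the BMP list, which holds ligands and secreted modulators beside response genes, were tested. Of these, 6 rose and 6 fell, with a median of -0.12. The called ligands and modulators were BMP7 and CHRDL1, which rose, and BMP2, BMP4 and BMPER, which fell. The other called genes were ID1, ID3, ID4 and BAMBI, which rose, and SMAD6, MSX1 and HAND1, which fell. The ones that rose included ID1, an inhibitor of differentiation factors and a direct BMP target, from 789 and 644 FPKM to 1772 and 2137 (difference 1.45, limma adjusted p = 0.00616). The largest decreases were of BMPER at -4.45, BMP2 at -4.34 and MSX1 at -3.99, a secreted BMP modulator, a ligand and a homeobox target. Over the 52 genes named from these and the marker lists and from the profile comparison, leaving out the first or second DMSO library lost 16 or 19 calls, and leaving out either IWP2 library lost 34. Testing all genes without the filter on low values lost 23 of these calls, and the replicate block lost 5.

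**Figure D3:**
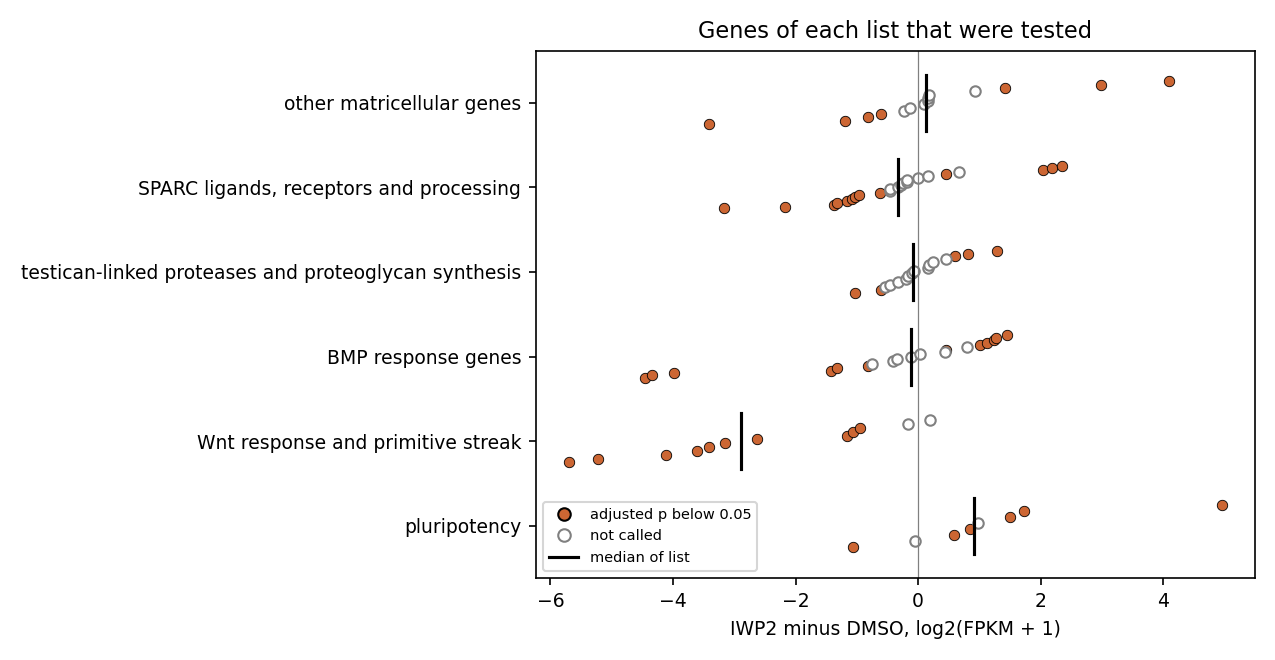
Difference IWP2 minus DMSO in log2(FPKM + 1) of every gene tested in 6 lists, filled where the limma adjusted p was below 0.05, with a vertical bar at the median of the list. The matricellular and BMP lists reach far to both sides of 0, while the list of Wnt response and primitive streak genes has its median at -2.88.

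Markers of other states and cell types moved in the same comparison. The list of Wnt response and primitive streak genes held 13 symbols, of which T and TBXT name the same gene, brachyury. All 12 genes were tested and 10 fell. Among the 10 that fell were MIXL1, from 278 and 318 FPKM to 21.8 and 25.4 (limma adjusted p = 0.0004), and T, from 21.6 and 18.5 to 9.40 and 10.4 (limma adjusted p = 0.0114). RNF43 and ZNRF3 were not called (limma adjusted p = 0.717 and 0.372), and ZNRF3 was slightly higher in both IWP2 libraries. Of 8 pluripotency genes 5 rose and 1, TDGF1, fell. Of 12 endoderm markers 11 were tested and 8 fell, and their summed level was 405 to 441 FPKM in DMSO and 134 to 146 in IWP2. Most of that drop came from GATA6 and GATA4. GATA6 went from 118.6 and 134.5 FPKM to 3.52 and 3.01, and GATA4 from 62.56 and 76.15 to 3.41 and 3.54. The study counts GATA4 among its mesenchymal genes, so the sum does not stand for endoderm alone. SOX17, the highest marker on average, was at 155 and 104 FPKM in DMSO and at 79.7 and 94.9 in IWP2. It was not called (limma adjusted p = 0.166), and neither were SOX7 and AFP. AFP went the other way, from 0.37 and 0.11 FPKM in DMSO to 1.84 and 0.90 in IWP2. None of these 12 was at 0 in all libraries.

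SPARCL1 is known from endothelium, and 9 endothelial markers were therefore read beside it. Of these, 5 were tested and 3 fell, KDR, TEK and VWF. The sum of all 9 was 62.0 to 67.7 FPKM in DMSO and 40.2 to 41.7 in IWP2, below DMSO in both IWP2 libraries. KDR made up most of that sum, at 53.2 and 60.4 FPKM in DMSO and at 38.6 and 35.7 in IWP2. PECAM1, CDH5, ERG and EMCN were under the filter. Of 8 neural markers 4 were tested, SOX3 and NES rose and OTX2 fell, with a sum of 150 to 157 FPKM in DMSO and 133 to 143 in IWP2, and HES5 was at 0 in every library. Of 9 amnion or trophoblast markers 7 were tested, TFAP2A, KRT7 and GABRP rose and CDX2 fell, and the sum went from 86.2 to 104 FPKM in DMSO to 137 to 143 in IWP2. The largest part of that rise was TFAP2C, at 33.9 and 16.8 FPKM in DMSO and at 53.7 and 53.8 in IWP2. TFAP2C was not called (limma adjusted p = 0.0823). Of 8 fibroblast or smooth muscle markers 6 were tested, TAGLN rose and LUM fell, and the sum was 542 to 613 FPKM in DMSO and 900 to 953 in IWP2. TAGLN made up most of that sum, and the other 7 markers together were at 97.4 and 114 FPKM in DMSO and lower, at 81.8 and 79.2, in IWP2. The part of these cell types in the levels of SPARCL1 and SPARC was not tested.

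The genes whose profile over the 4 libraries was most like that of SPARCL1 were named by the smallest Euclidean distance between log2(FPKM + 1) values centered on the mean of each gene. They were MTATP8P2 at 0.115, U3 at 0.139, MTATP8P1 at 0.262, TRBC2 at 0.479 and CTGF at 0.629, and the first 3 were listed at 0 in both DMSO libraries. For SPARC they were FBRS at 0.0313, TMLHE at 0.0352, AC100810.1 at 0.0387, LYRM1 at 0.0464 and WDR41 at 0.0469. With 4 libraries in 2 groups, such a distance mostly reflects the size of the group difference.

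SPARCL1 lies beside a cluster of genes for secreted phosphoproteins of bone and tooth, which were looked at after values had been seen and are given with no test. NUDT9, an ADP-ribose hydrolase 13.9 kb away, was at 16.4 and 17.1 FPKM in DMSO and at 20.3 and 21.1 in IWP2. DMP1, dentin matrix protein, was at 0.0183 and 0.0206 FPKM in DMSO and at 0.416 and 0.328 in IWP2. IBSP, bone sialoprotein, was at 0.0338 and 0.0383 FPKM in DMSO and at 0.430 and 0.644 in IWP2. All 3 were higher in both IWP2 libraries, although DMP1 and IBSP stayed under 1 FPKM. MEPE, another gene of the cluster, was the reverse, at 2.33 and 2.45 FPKM in DMSO and at 0.467 and 0.479 in IWP2. Of the 11 protein-coding genes within 500 kb of SPARCL1, 7 had a mean of at least 0.5 FPKM, and of these 3 (NUDT9, SPP1 and PKD2) had both IWP2 libraries above both DMSO libraries and 4 had both below, where the shares over all genes tested were 27.6% and 31.0%.

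**Figure D4:**
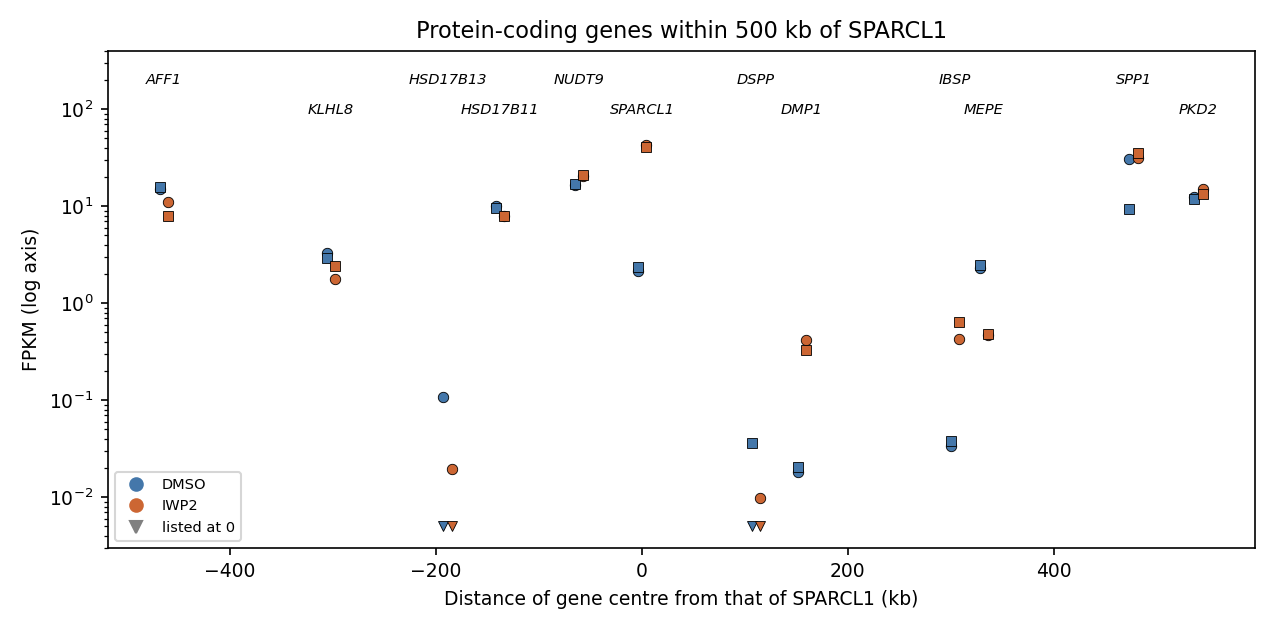
FPKM (log axis) of the protein-coding genes within 500 kb of SPARCL1 in each library, placed by the distance in kb of the gene centre from that of SPARCL1. DMP1 and IBSP lie higher in IWP2 at under 1 FPKM, MEPE lies lower, and SPARCL1 goes from 2.24 to 42.1 on average.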

How the data were processed

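RNA of 4 libraries was sequenced after a TruSeq preparation, and the authors deposited 1 table of FPKM per gene. The submitters' notes name BWA, Bowtie, RSEM and hg19, with no versions. The deposited coordinates are of GRCh38: 56554 of 58102 gene IDs found in GENCODE 29 (97.3%) had the same position there. Of 58365 rows, 1770 repeats of a symbol were left out and the row with the highest mean was kept. Column names place both DMSO columns in their group but do not say which library is which, so their numbers are only names.

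The tests ran in limma 3.58.1 (R 4.3.3, eBayes with trend) on log2(FPKM + 1), with no covariates, for genes with a mean of at least 0.5 FPKM, with Benjamini-Hochberg adjustment. The code was also run on simulated data with known changes. Gene spreads were shuffled there, so that run does not show that the calls in these libraries are right. An exact permutation test of 2 against 2 libraries cannot go below p = 0.333 (two-sided), so none is given. Python 3.11.15 served the summaries. Alternatives were other pseudocounts, filters, scalings and variance models, a replicate block and leaving out each library.

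The members and the 12 lists were chosen with earlier results of these data known. Named genes were the members, FSTL1, up to 4 called genes with the largest difference in each list, 4 genes that check the treatment and the 5 most like profiles. FN1, COL1A1, COL4A1, COL4A2, COL5A2, SPP1, STAB1, FBLN1, FBLN2, FBLN5, ID1 and the neighbors of SPARCL1 were named after their values were seen where they fell outside this rule. So were BMP4, BMP7, CHRDL1, ID3, ID4, BAMBI, SMAD6, HAND1, SOX17, SOX7, AFP, TFAP2C, RNF43, ZNRF3, PECAM1, CDH5, ERG, EMCN and HES5. Lost calls of named genes were counted only over genes that the rule took.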

Additional observations from a re-analysis of the deposited data

How the results depend on the processing

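Main counts over all genes were 935 called higher and 1180 called lower in IWP2, with 4586 genes at an unadjusted p below 0.05. Without a filter on low values 118 were called higher and 266 lower, and without 1 library 19 to 300 higher and 88 to 431 lower. The remaining settings gave 823 to 1085 higher and 1043 to 1254 lower, including a scaling to the same sum in each library that was chosen after seeing the data. SPARCL1 kept its direction under every setting, at 4.17 with a pseudocount of 0.1, which is no support because it was chosen for this increase. SPARC kept its direction too, at -0.53 and not called (limma adjusted p = 0.0900) without the filter, and at -0.58 to -0.49 and not called without 1 library. The cause of these lost calls was not tested. The replicate numbers are shared only as numbers: across genes, the deviations of same-numbered libraries from their group means had a correlation of 0.138. With 2 libraries per group, both pairs give this same value, so it is only 1 comparison. With the replicate block, 849 genes were called higher and 1073 lower, and FSTL1 had a limma adjusted p of 0.0155. Without 1 library, the list of SPARC ligands, receptors and processing had 0 to 3 genes called higher and 2 to 5 lower, and the other matricellular genes 0 to 4 higher and 0 to 2 lower. SPOCK3, which was not tested, changed from -0.12 to 0.03 without the second DMSO library. FN1, COL4A1, COL4A2, COL5A2, FBLN1, FBLN2 and FBLN5 kept their direction under every setting, and each lost its call without at least 1 of the libraries. With the depth unknown, values under 0.5 FPKM carry no interval.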
